A study of Homo sapiens with 4 samples.

Results

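The rows described here are 10 of the 59385 rows of a gene count table, read as 5 pairs of genes that lie on opposite strands of the same stretch of genome. In each pair one gene is active around S phase, and the other, called the facing row below, has exons that overlap it on the other strand. The pairs are TYMS and ENOSF1, CCNE2 and INTS8, CCNA2 and EXOSC9, TICRR and KIF7, and TMPO and TMPO-AS1. The rows were chosen from this same table with their counts and their difference between the groups already known, so those values are given as a description, and calls of the members by a tool are printed only beside the share of all rows it called. All 10 were found by name, and all 10 passed the filter on low counts.

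The table comes from RNA sequencing of C4-2 cells, an androgen-independent human prostate cancer line derived from LNCaP. One group had a control small interfering RNA (siCTRL, 2 libraries) and the other a small interfering RNA against EZH2 (siEZH2, 2 libraries). EZH2 is the Polycomb group enzyme that methylates histone H3 at repressed genes. A library is called below by its label and replicate number, and log2 ratios, also called log2 fold changes, set siEZH2 over siCTRL with the standard error (SE) of a fit by edgeR, a tool for count tables. Nothing in the labels says whether the replicates were separate cultures, how long the RNAs were applied or what their sequences were, so the spread between libraries may be technical.

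Entry into S phase is driven by cyclin E and then cyclin A bound to the kinase CDK2. These kinases let origins fire, a step that needs TICRR (also called treslin), while thymidylate synthase, the product of TYMS, makes the thymidine nucleotide for the new DNA. E2F transcription factors and the DREAM complex switch many of these genes on and off through short elements near their start sites. TMPO encodes the lamina-associated LAP2 proteins, one of which binds the retinoblastoma protein that holds E2F in check.

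To show what the S-phase genes share and how they differ upstream, the 250 bases before the start of 4 of them follow, 5′ to 3′ on the gene's own strand, from RefSeq on GRCh38.p14. Capitals mark matches on either strand to an E2F element, a CHR element, a CCAAT box or a GC box. The E2F element was searched as TTCCCGC and also as TTGGCGC, with TTCGCGC and then TTGCCGC as further forms. The CHR element was searched as TTTGAA and also as TTTAAA, the CCAAT box by its name's letters, and the GC box as GGGCGG. Neighbouring matches may share bases.
TYMS (chr18:657403-657652, plus strand): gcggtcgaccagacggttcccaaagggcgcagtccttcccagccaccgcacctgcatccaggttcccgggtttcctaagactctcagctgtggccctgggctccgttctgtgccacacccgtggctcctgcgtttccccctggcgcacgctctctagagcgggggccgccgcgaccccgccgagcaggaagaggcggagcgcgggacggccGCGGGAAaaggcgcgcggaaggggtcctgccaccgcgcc
CCNA2 (chr4:121823884-121824133, minus strand): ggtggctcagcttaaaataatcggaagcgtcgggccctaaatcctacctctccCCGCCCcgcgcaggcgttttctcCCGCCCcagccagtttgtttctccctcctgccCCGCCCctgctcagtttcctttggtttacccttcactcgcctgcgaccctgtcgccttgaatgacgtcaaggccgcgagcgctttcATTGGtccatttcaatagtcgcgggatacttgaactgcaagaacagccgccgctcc
TICRR (chr15:89575219-89575468, plus strand): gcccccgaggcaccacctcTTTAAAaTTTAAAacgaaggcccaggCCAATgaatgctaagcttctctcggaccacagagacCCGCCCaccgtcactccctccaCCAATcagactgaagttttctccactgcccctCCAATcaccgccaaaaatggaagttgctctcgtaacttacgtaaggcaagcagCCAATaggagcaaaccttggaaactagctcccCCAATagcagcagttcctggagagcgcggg
TMPO (chr12:98515323-98515572, plus strand): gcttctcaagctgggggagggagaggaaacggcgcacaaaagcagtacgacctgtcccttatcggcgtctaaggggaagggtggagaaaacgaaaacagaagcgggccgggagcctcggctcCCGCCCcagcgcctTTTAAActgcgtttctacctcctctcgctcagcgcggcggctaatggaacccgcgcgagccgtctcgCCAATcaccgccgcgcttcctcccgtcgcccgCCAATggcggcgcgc

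The TYMS window held 1 E2F match, 39 bases before the start, and none of the other elements. The CCNA2 window held 1 CCAAT box, 56 bases before the start, and 3 GC boxes. TICRR had 5 CCAAT boxes, 2 CHR matches and 1 GC box, and TMPO had 2 CCAAT boxes, 1 CHR match and 1 GC box. TICRR and TMPO each have 2 listed starts, of which the first is shown. The window of the second TICRR start held 3 CCAAT boxes, 1 GC box and 0 CHR matches, and that of the second TMPO start had the same matches as the first. Among the facing genes, ENOSF1 had 1 CCAAT box and 2 GC boxes, EXOSC9 had 1 CCAAT box, KIF7 had 5 GC boxes and TMPO-AS1 had no match. Of all 35116 listed windows of this length, 10.9% held an E2F match, 21.9% a CHR match, 32.0% a CCAAT box and 42.6% a GC box. A match describes the letters only. Forms of an element other than those listed were not searched, so a window with no match may still hold the element.

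The overlap itself can be read from the annotated transcripts (GENCODE release 29, GRCh38). The 30 bases at the middle of the longest shared stretch are shown for 2 pairs, each as the transcript of its own strand has them, with all bases in capitals because all are exonic in both genes. Each second line is the reverse complement of the first, so only the strand of a read tells the genes apart there.
TYMS (chr18:673205-673234, plus strand): CTGAGGGTATCTGACAATGCTGAGGTTATG
ENOSF1 (chr18:673205-673234, minus strand): CATAACCTCAGCATTGTCAGATACCCTCAG
TMPO (chr12:98515690-98515719, plus strand): TGTGTCCGGGTCTGGCTTGGCTTTGTGTCC
TMPO-AS1 (chr12:98515690-98515719, minus strand): GGACACAAAGCCAAGCCAGACCCGGACACA

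TYMS (chromosome 18, 657604 to 673578, plus strand) and ENOSF1 (670324 to 712676, minus strand) share 967 exonic bases at their 3′ ends, which is 39.1% of the exonic length of TYMS and 8.5% of that of ENOSF1. Of these, 383 bases code for protein in TYMS and 0 in ENOSF1. CCNA2 (chromosome 4, 121816444 to 121823933, minus strand) and EXOSC9 (121801317 to 121817021, plus strand) share 254 exonic bases tail to tail. That is 9.1% of CCNA2 and 5.4% of EXOSC9, so most of either row lies outside the overlap. TICRR (chromosome 15, 89575482 to 89631056, plus strand) and KIF7 (89608789 to 89655451, minus strand) also meet tail to tail and share 589 bases in 5 stretches, or 7.0% and 11.8% of their exons. TMPO (chromosome 12, 98515512 to 98550379, plus strand) and the antisense RNA gene TMPO-AS1 (98512973 to 98516422, minus strand) are the one head-to-head pair. They share 713 bases, or 8.3% and 21.2%, around the first exons of TMPO.

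CCNE2 (chromosome 8, 94879770 to 94896678, minus strand) and INTS8 (94813311 to 94881746, plus strand) share 1629 bases tail to tail in 1 stretch, the longest overlap of the 5 pairs. It makes up 37.0% of the exons of CCNE2 and 20.7% of those of INTS8. Row lengths in the table equal those of this annotation release for CCNE2, INTS8 and TMPO-AS1 and differ for the other 7 rows, so the overlaps hold for release 29 and may differ in the authors' release.

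**Figure D1:**
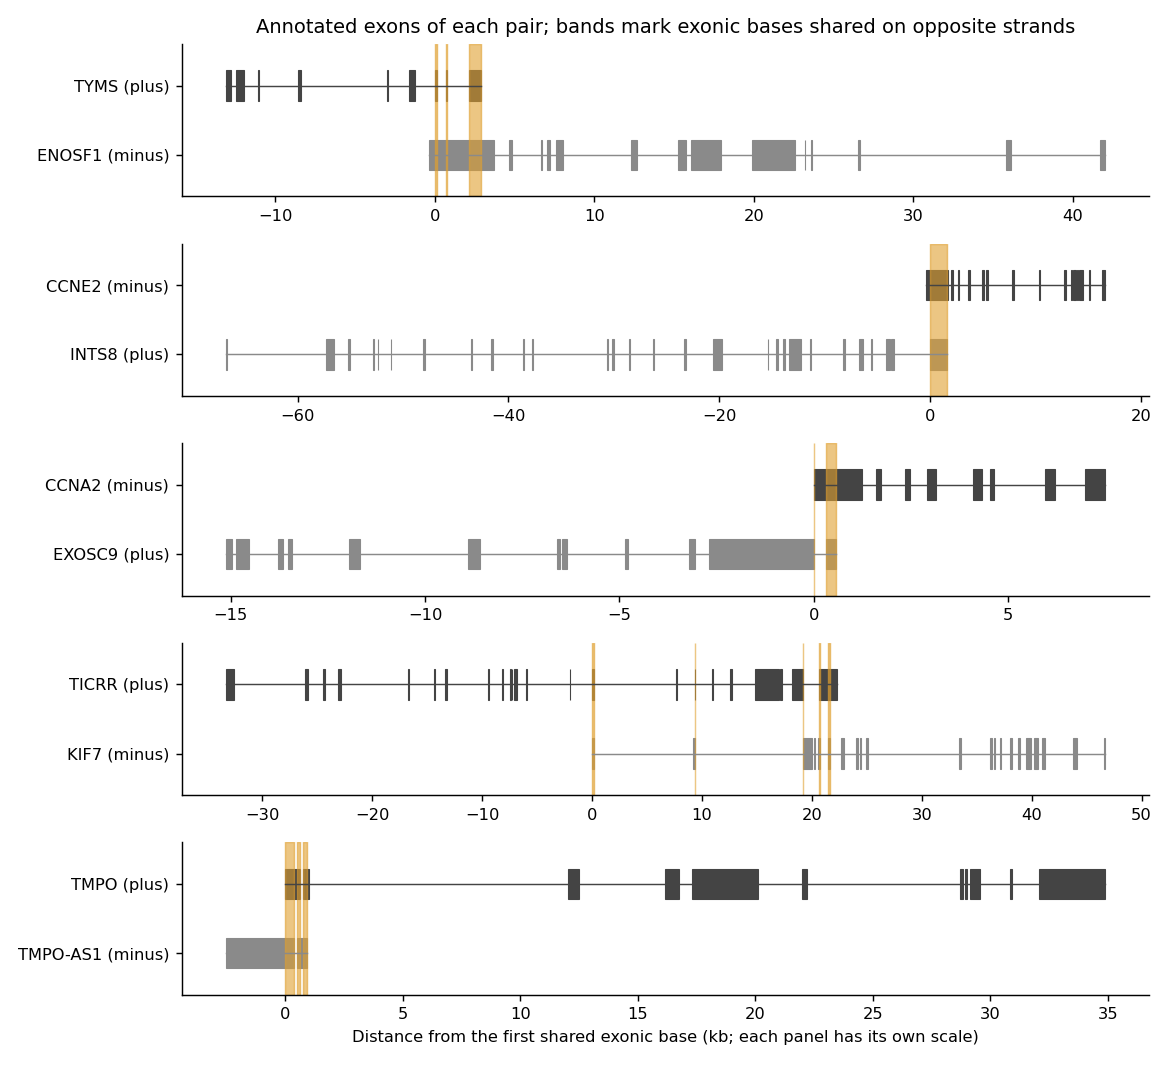
Annotated exons (boxes) of the S-phase gene and the facing gene of each pair, against distance in kb from the first shared exonic base, with strands in brackets and bands over the exonic bases shared by both. The shared 1629 bases of CCNE2 and INTS8 form 1 block, the 589 bases of TICRR and KIF7 are spread over 5 stretches, and TMPO and TMPO-AS1 overlap at their starts.

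Facts of the whole table bear on how these rows can be read. The libraries held 6162123 to 6867542 counts, and factors of TMM, a scaling that sets most rows equal between libraries, ran from 0.704 and 0.946 for siCTRL to 1.12 and 1.34 for siEZH2. EZH2 itself had 39 and 59 counts with siCTRL, and 60 and 131 with siEZH2, which gave a log2 ratio of 0.51 ± 0.52 (SE), so the labels could not be checked from the targeted gene. The library kit is stranded and the strand setting of the counting is not given in the sources used here. MT-ND6, the one light-strand gene among 13 mitochondrial protein genes, held 69.9% to 80.5% of their counts, so a value below is the count under a row and is not taken for the level of that gene's mRNA. Olfactory receptor genes, silent in most tissues, gave, over 405 rows, 1.3 and 3.14 counts per kb with siCTRL, and 4.64 and 6.27 with siEZH2. Per kb, the EZH2 row was at 2.77 and 1.74 times these rows of the same library with siCTRL. With siEZH2 it was at 1.2 and 1.94 times, so EZH2 was near background. All 10 luminal prostate markers were counted in every library, with KLK3 at 594, 588, 270 and 374 counts. Summed markers of stroma ran from 24.1 to 42.7 CPM (counts scaled to a common library size with TMM) in siCTRL and from 47.3 to 48.7 in siEZH2, those of endothelium from 9.78 to 19.6 and from 27.1 to 33.9, of leukocytes from 69.5 to 97.4 and from 59.3 to 70.0, and of neuroendocrine cells from 11.5 to 13.9 and from 11.6 to 13.6. CD68 alone made up 90.4 and 57.0 CPM of the leukocyte sums with siCTRL, and 44.7 and 49.6 with siEZH2. It was the 1 negative leukocyte marker of the 4 tested, and the other 3 were positive. Of the 2 tested neuroendocrine markers, 1 was negative and 1 positive. Of the luminal markers all 10 were tested, with negative ratios in 10 and summed CPM of 4710 and 3510 with siCTRL, then 3320 and 1530 with siEZH2. All 7 stromal and all 4 endothelial markers had positive ratios. COL1A2 and DCN had the most counts of the stromal markers. Per kb they were at 1.1 to 2.48 times the olfactory receptor rows of the same library. VWF and KDR, with the most endothelial counts, were at 0.602 to 2.48 times, so these rows were near background. Signs followed the counts across the whole table: 95.5% of rows with a mean of 200 to 1000 counts and 30.7% of rows with 20 to 50 had a negative ratio, and the median mean count was 231.8 for luminal, 39.25 for stromal and 36.25 for endothelial markers. CHGA, which defines neuroendocrine cells, had 0, 1, 0 and 2 counts. Whether stromal or endothelial cells were present was not tested, nor what part the cells behind these marker lists have in the results.

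The lower level in the siEZH2 libraries held for 9 of the 10 rows in every library: each siEZH2 value lay below each siCTRL value on the TMM scale for all but CCNE2. Over all 24431 tested rows the same separation was found in 22.9%. It was found in 74.2% of rows with a mean of 200 to 1000 counts, where 5 of 6 members showed it, and in 78.5% of rows with 1000 or more, where 3 of 3 did. A lower value was thus the common case among rows with 200 or more counts. TICRR belongs to rows with 20 to 50 counts, where 12.2% showed the separation. In bulk RNA, fewer cells of a type and less RNA per cell cannot be told apart, whatever RNA lies under a row.

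TYMS counts were 809 and 659 with siCTRL, and 389 and 612 with siEZH2. Both siEZH2 values lay below both siCTRL values, but siEZH2 replicate 2 came close to siCTRL replicate 2 before scaling. Scaled levels were 136 ± 46.0 CPM against 65.6 ± 14.2 CPM (SD, n = 2 each), which gave a log2 ratio of -1.05 ± 0.42 (SE). It was -0.66 without siCTRL replicate 1.

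ENOSF1, which encodes a mitochondrial enzyme of the enolase superfamily and was first described as a transcript antisense to TYMS, had the most counts of the 10 rows. It held 12347 and 11181 counts in siCTRL and 4694 and 7284 in siEZH2. The groups were far apart, with the lowest siCTRL library well above the highest siEZH2 library. Levels were 2163 ± 577 and 786 ± 163 CPM (SD, n = 2 each), which gave a log2 ratio of -1.46 ± 0.47 (SE). A further row overlaps TYMS at the other end. TYMSOS, a long noncoding RNA that starts beside the TYMS promoter and shares 183 exonic bases with it on the minus strand, was added after its values were seen. It held 2199 and 2686 counts against 1134 and 1351, which gave a log2 ratio of -1.42 ± 0.41 (SE), close to the value of ENOSF1.

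The CCNE2 row, of cyclin E2, held 612 and 394 counts in siCTRL and 513 and 492 in siEZH2. The groups overlapped, and the siCTRL libraries were the highest and the lowest of the 4 before scaling. Levels were 94.6 ± 46.4 and 67.1 ± 8.80 CPM (SD, n = 2 each), which gave a log2 ratio of -0.49 ± 0.43 (SE). It turned positive, 0.12, without siCTRL replicate 1. Summed counts of the siEZH2 libraries were 99.9% of those of the siCTRL libraries for this row, against 91.5% for the whole table.

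INTS8, a subunit of the Integrator complex that ends transcription of small nuclear RNAs and many promoter-proximal transcripts, stood apart from the cyclin it faces. Its row held 2856 and 2281 counts in siCTRL and 963 and 1508 in siEZH2. No siEZH2 value reached a siCTRL value. Levels were 476 ± 167 and 162 ± 34.6 CPM (SD, n = 2 each), which gave a log2 ratio of -1.55 ± 0.44 (SE).

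CCNA2, cyclin A2, which partners CDK2 in S phase and CDK1 later, held 677 and 545 counts in siCTRL and 391 and 409 in siEZH2. The siEZH2 libraries were close to each other and below both siCTRL libraries. Levels were 113 ± 39.2 and 53.2 ± 3.74 CPM (SD, n = 2 each). Its fitted log2 ratio was -1.09 ± 0.41 (SE), and -0.68 without siCTRL replicate 1. EXOSC9, a core subunit of the RNA exosome that degrades and trims RNA in the nucleus and cytoplasm, held 1065 and 866 counts against 416 and 666. Its groups did not overlap either. Its levels of 179 ± 60.7 and 70.9 ± 16.2 CPM (SD, n = 2 each) gave a log2 ratio of -1.33 ± 0.42 (SE).

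TICRR was the one member near background. Its row held 26 and 31 counts in siCTRL and 28 and 26 in siEZH2, so the libraries were alike before scaling. Per kb of row length this was 2.37 and 1.17 times the olfactory receptor rows of the same library in siCTRL and 0.717 and 0.493 times in siEZH2. Its log2 fold change of -0.51 had a standard error of 0.73, and a difference between groups was not detectable at this depth. KIF7, a kinesin that works at the tip of the primary cilium and tunes the Hedgehog transcription factors, held 863 and 908 counts against 289 and 349. The replicates of each group were close and the groups far apart. Its levels of 161 ± 26.3 and 42.2 ± 1.32 CPM (SD, n = 2 each) gave a log2 ratio of -1.93 ± 0.41 (SE), the most negative of the 10. Without any scaling, the siEZH2 counts were 36.0% of the siCTRL counts.

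TMPO held 541 and 526 counts in siCTRL and 204 and 271 in siEZH2. The siCTRL values were nearly equal and both siEZH2 values were far below them. Levels were 97.6 ± 21.3 and 31.3 ± 3.09 CPM (SD, n = 2 each), which gave a log2 ratio of -1.64 ± 0.41 (SE). Its antisense row TMPO-AS1 held 3067 and 3403 counts against 1771 and 1547, again without overlap. Its levels of 586 ± 73.9 and 222 ± 43.6 CPM (SD, n = 2 each) gave a log2 ratio of -1.40 ± 0.42 (SE).

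**Figure D2:**
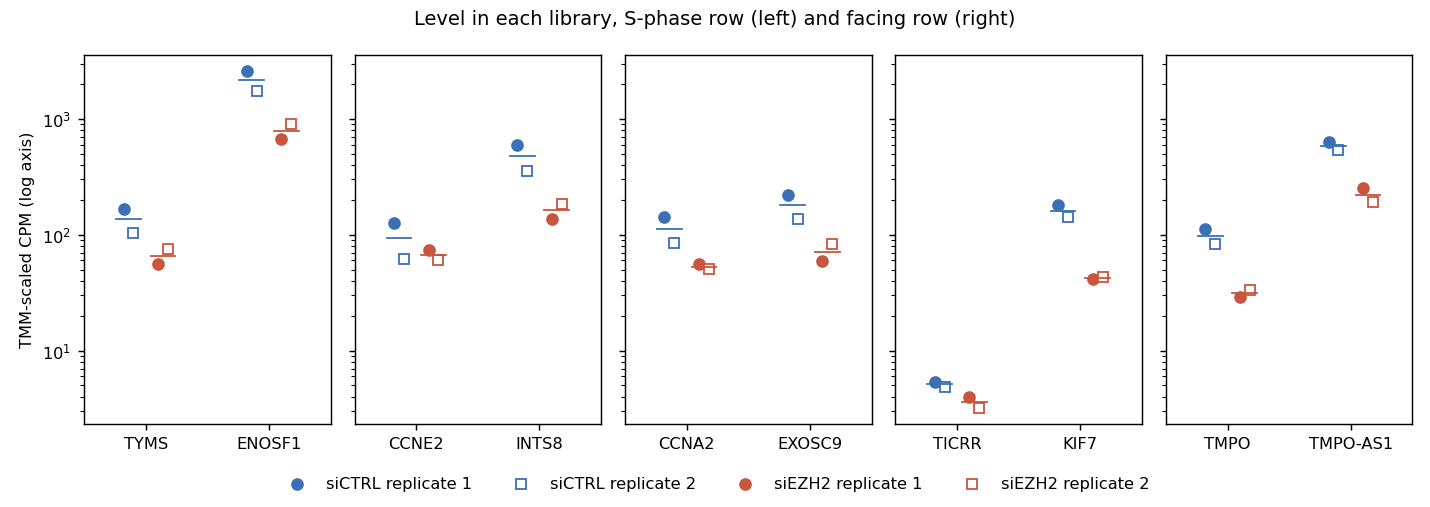
TMM-scaled CPM on a log axis for the S-phase row (left) and the facing row (right) of each pair, with 1 point per library and a line at each group's mean. The siEZH2 points lie below the siCTRL points in every row but CCNE2, and TICRR, at 3.22 to 5.41 CPM, lies far below the other rows.

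Across the 10 rows the log2 fold change was negative in 10, against 43.3% of all tested rows, and below -1 in 8, against 10.1%. TICRR belongs to rows with 20 to 50 counts, of which 30.7% were negative. Among rows with 200 or more counts, the range of the other members, a negative value was near universal. It was found in 95.5% of rows with 200 to 1000 counts and 98.3% of those with 1000 or more, and 24.8% and 18.4% lay below -1. The edgeR quasi-likelihood test called 0 of the 10 lower at an adjusted p under 0.05, as it did 0% of all tested rows. At an unadjusted p under 0.05 it had 8 members and 7.91% of all rows lower, and 0 members and 8.53% of all rows higher. DESeq2 called 8 of the 9 members to which it gave an adjusted p, and 17.1% of such rows, while limma-voom called 5 of 10 members and 1.37% of rows. ENOSF1, INTS8, KIF7, TMPO and TMPO-AS1 were called by both. Since the members were chosen on this contrast, these counts describe them and support nothing further.

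Rows of like counts set the scale for these values. The median log2 fold change was -0.75 over the 1928 tested rows with a mean of 200 to 1000 counts, and -0.71 over the 959 rows with 1000 or more. KIF7 lay lowest against its class, with 0.571% of those rows more negative. For TMPO it was 1.61%, for INTS8 1.67%, for ENOSF1 2.92%, for TMPO-AS1 3.86% and for EXOSC9 7.26%. TYMS and CCNA2 lay nearer the middle of their class, with 21.5% and 19.0% of rows more negative, and CCNE2 lay above its median, with 74.5% more negative. TICRR belongs to rows with 20 to 50 counts, whose median was 0.49, and 15.7% of those were more negative.

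Scaling on the 3030 rows that reached 200 counts in 2 or more libraries took out most of this shared shift. The median of all tested rows was then 0.88 in place of 0.22, and the medians of the 200 to 1000 and the 1000 or more classes were -0.02 and 0.00. Under it KIF7 had -1.21 ± 0.26 (log2 fold change and standard error), TMPO -0.90 ± 0.29, INTS8 -0.78 ± 0.24, ENOSF1 -0.70 ± 0.21, TMPO-AS1 -0.70 ± 0.20 and EXOSC9 -0.56 ± 0.28. CCNA2 had -0.34 ± 0.26 and TYMS -0.28 ± 0.28. CCNE2 and TICRR turned positive, at 0.27 ± 0.27 and 0.18 ± 0.85. Groups did not overlap in 7 members, against 6.76% of all rows, and in the counts as deposited, with no scaling, in 8 members against 12.8% of rows. The 7 were ENOSF1, INTS8, CCNA2, EXOSC9, KIF7, TMPO and TMPO-AS1. These 2 shares of all rows were not taken among rows of like counts, which differ from all rows. Under this scaling 52.5% of rows with 200 to 1000 counts had a negative value. It was 49.4% of those with 1000 or more and 19.6% of all rows.

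**Figure D3:**
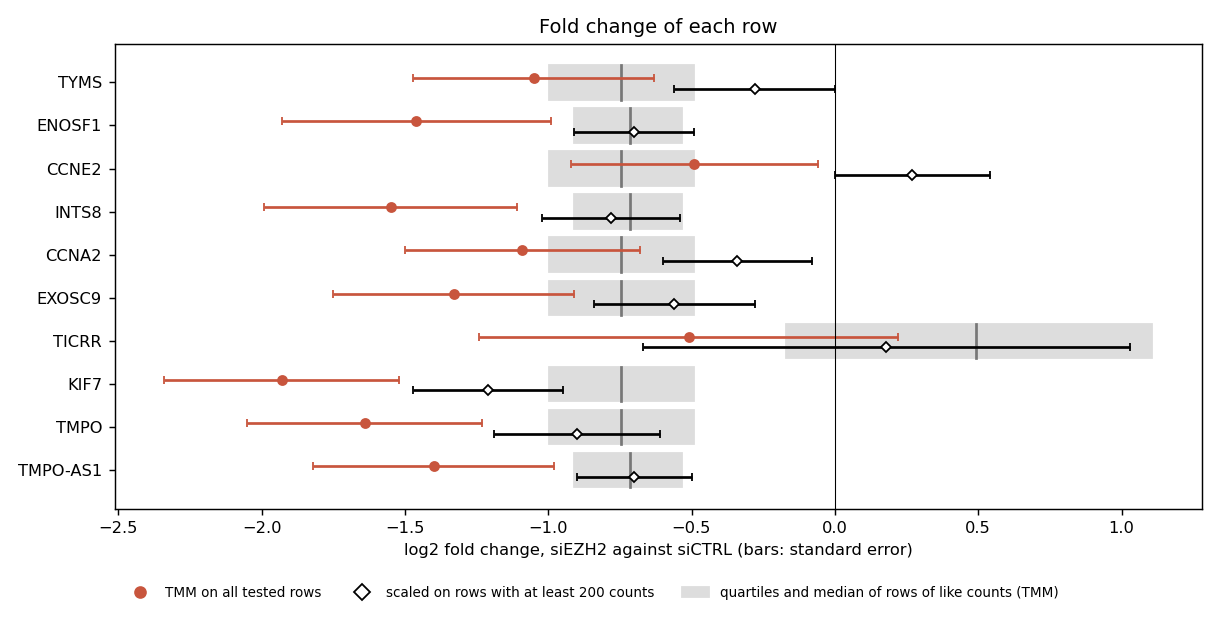
Log2 fold change of siEZH2 against siCTRL with its standard error for each row, under TMM on all tested rows (filled) and under scaling on rows with at least 200 counts (open). Grey boxes give the quartiles and the line the median of tested rows of like counts under TMM, to be set against the filled points. The filled points of all rows but CCNE2 lie left of their boxes, those of TYMS and CCNA2 only just, and CCNE2 and TICRR are positive under the second scaling.

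The ratio of the 2 rows of a pair within a library needs no scaling between libraries. The facing row held more counts than the S-phase row in every library in 5 of 5 pairs, and more counts per kb in 4 of 5, all but CCNA2 and EXOSC9. ENOSF1 held 15.3 and 17.0 times the counts of TYMS in siCTRL and 12.1 and 11.9 times in siEZH2. KIF7 held 33.2 and 29.3 times those of TICRR in siCTRL and 10.3 and 13.4 times in siEZH2. INTS8 held 4.67 and 5.79 times those of CCNE2, and 1.88 and 3.07 times in siEZH2. In these 3 pairs the siEZH2 ratios lay on one side of the siCTRL ratios, with the S-phase row taking the larger share in siEZH2. Such ratios were not taken in each library for other opposite-strand pairs. The count of 3 therefore has no share beside it and is a description of the chosen pairs only.

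On the log2 scale, the S-phase row over the facing row per kb was -1.77 ± 0.11 in siCTRL and -1.35 ± 0.01 in siEZH2 for TYMS and ENOSF1 (SD, n = 2 each), a difference of 0.43. For CCNE2 and INTS8 it was -1.54 ± 0.22 and -0.42 ± 0.50, a difference of 1.12, which ran from 0.76 to 1.47 as each library was left out. For TICRR and KIF7 it was -5.61 ± 0.12 and -4.20 ± 0.27, a difference of 1.41, with TICRR near background throughout. In the other 2 pairs the ratios of the groups overlapped. CCNA2 over EXOSC9 was 0.12 ± 0.01 and 0.38 ± 0.43, and the difference of 0.26 became -0.04 without siEZH2 replicate 1. TMPO over TMPO-AS1 was -3.94 ± 0.13 and -4.15 ± 0.43, and the difference of -0.22 became 0.09 without the same library. With 2 libraries against 2 an exact permutation test cannot give a two-sided p below 0.333, so no p is given.

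**Figure D4:**
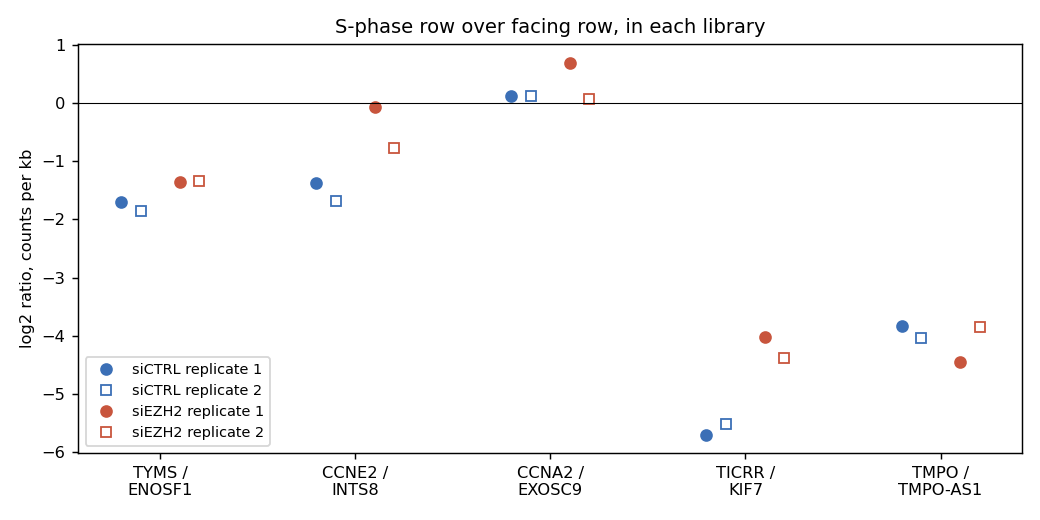
Log2 ratio of the S-phase row to the facing row, in counts per kb of row length with a pseudocount of 0.5, in each library. The groups lie apart for TYMS and ENOSF1, CCNE2 and INTS8, and TICRR and KIF7, and overlap for CCNA2 and EXOSC9 and for TMPO and TMPO-AS1.

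The facing row did not hold more for all replication genes. Among the other genes of the 5 S-phase lists, 16 have a coding row that overlaps their exons by at least 100 bases on the other strand, making 17 pairs. The facing row held more counts per kb in 9 of the 17 and more counts in 8. MCM7, a subunit of the replicative helicase, faces AP4M1 over 392 bases and had a mean of 128.5 counts per kb against 2206 for AP4M1, which encodes an adaptor complex subunit. PRIM1, the catalytic primase subunit, had 12.0 counts per kb against 253.2 for HSD17B6. The opposite order was seen for RFC5, a clamp loader subunit, with 373.1 counts per kb against 19.3 for WSB2. These 3 pairs were picked after their values were seen. Whether any of these rows holds reads of the other strand was not tested.

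**Figure D5:**
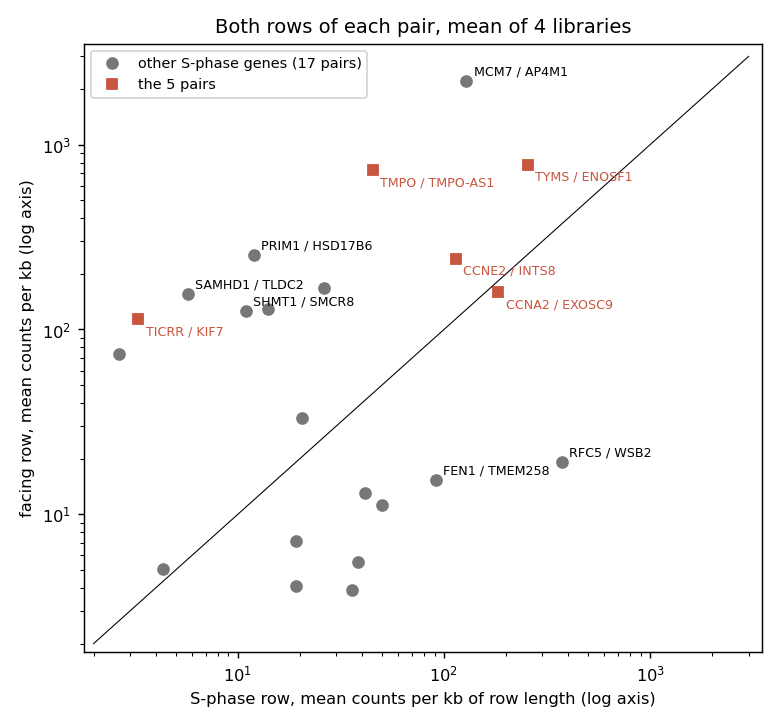
Mean counts per kb over the 4 libraries of S-phase rows against the rows that face them, both on log axes, with equal values on the line. Squares are the 5 pairs and circles the 17 other pairs, of which 9 lie above the line. AP4M1, facing MCM7, has the most counts per kb of the facing rows in the 17, and RFC5 and WSB2 lie farthest below the line.

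The other S-phase genes gave a mixed picture. Of 102 genes in the 5 lists that are not members, 99 were tested, and edgeR called 0 of them at an adjusted p under 0.05. At an unadjusted p under 0.05 it had 10 lower and 2 higher, against 7.91% and 8.53% of all tested rows. DESeq2 called 2 lower, MCM7 and RFC5, of the 24 to which it gave an adjusted p, against 17.1% of all such rows, and limma-voom called 0. Their log2 fold change was negative in 58 and positive in 41, with a median of -0.21, against a median of 0.22 over all tested rows. The 8 whose mean reached 200 counts were all negative, with a median of -0.89. Rows of such counts had 95.5% to 98.3% negative and class medians of -0.75 and -0.71. Under scaling on well-covered rows the median of the 99 was 0.49, against 0.88.

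Helicase loading and activation genes were 15 negative and 16 positive outside the members, with a median of 0.00. MCM2, another helicase subunit, held 988 and 821 counts against 887 and 902, and RECQL4, a helicase that takes part in origin firing, 908 and 782 against 858 and 811. Neither row separated the groups before scaling. On the TMM scale both did, but only just, with log2 ratios of -0.49 and -0.48. The lower siCTRL and the higher siEZH2 value were 129 and 127 CPM for MCM2, and for RECQL4 both rounded to 123. Such a separation was found in 74.2% of rows with a mean of 200 to 1000 counts. Under scaling on well-covered rows the log2 ratio was 0.25 for both genes. Polymerase, clamp and strand-joining genes were 12 negative and 10 positive, with a median of -0.11. RFC5 held 1654 and 1276 counts against 855 and 1064, or -1.10 as a log2 ratio, and FEN1, the flap endonuclease, had -0.79.

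Genes that supply thymidylate and the other deoxynucleotides leaned lower, with 12 of 15 negative outside TYMS and a median of -0.47. SHMT2, a mitochondrial enzyme of the folate cycle, held 341 and 349 counts against 263 and 180, which gave a log2 ratio of -1.07 ± 0.42 (SE). MTHFD1, which interconverts folates in the cytosol, had -0.75. S-phase cyclins, kinases and regulators were 12 negative and 8 positive outside the members, with a median of -0.34. SKP2, which marks the CDK inhibitor p27 for destruction, held 819 and 717 counts against 606 and 453, or -0.99 as a log2 ratio. RBL2, the pocket protein p130, had -0.32. Chromatin genes that act at the fork were 7 negative and 4 positive, with NASP, a histone chaperone, at -0.54 and DNMT1, the maintenance DNA methyltransferase, at -0.29. Every one of these 5 medians was positive under scaling on well-covered rows, from 0.22 to 0.71 outside the members.

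Partners of the facing genes' products were set beside them. The 14 tested Integrator genes besides INTS8 were 5 negative and 9 positive, with a median of 0.13, INTS11 at -0.95 and INTS6 at 0.67. RNA exosome genes other than EXOSC9 were 10 negative and 1 positive, with a median of -0.55, EXOSC3 at -0.66 and EXOSC4 at -0.74. Hedgehog pathway genes other than KIF7 were 4 negative and 8 positive, with a median of 0.31. PTCH1, the Hedgehog receptor, had -0.79 and CDON, a co-receptor, 1.28, with 34 and 47 counts against 153 and 107. Lamina and LEM-domain genes other than TMPO were 8 negative and 3 positive, with a median of -0.75, SUN2 at -0.75 and LMNB2, lamin B2, at -0.42. Over all tested rows 43.3% were negative. Under scaling on well-covered rows the medians were 0.78 for Integrator, 0.07 for exosome, 0.90 for Hedgehog and -0.02 for lamina genes. The median of all tested rows was then 0.88. edgeR called 0 of the other genes in these 4 lists. At an unadjusted p under 0.05 it had 3 lamina genes lower, 0 exosome genes, 2 Integrator genes lower and 1 higher, and 1 Hedgehog gene higher, against 7.91% of all rows lower and 8.53% higher. DESeq2 called INTS5 and INTS11 lower, 2 of the 5 other Integrator genes to which it gave an adjusted p, against 17.1% of all such rows. Of the 14, limma-voom called INTS5, against 1.37% of all rows. The limit on strand holds for every row named here, with or without an annotated facing row. CDON, INTS6 and SUN2 face VSIG10L2, SERPINE3 and GTPBP1 over 2831, 789 and 680 bases. MTHFD1, RBL2 and FEN1 above face ZBTB25, AKTIP and TMEM258 over 178, 610 and 166 bases. Facing rows were sought only among the 63.4% of rows placed by symbol. Per kb of row length, CDON was at 1.31 and 0.751 times the olfactory receptor rows of the same library with siCTRL, and at 1.66 and 0.856 times with siEZH2, so it was near background.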

How the data were processed

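The authors deposited 1 table of raw counts per gene row, with a row length in bases, for 4 libraries. Per the labels' protocols, total RNA went into a stranded library kit. Per the submitters' processing notes, STAR 2.7.10b, featureCounts 2.0.3, edgeR, limma and GRCh38 (hg38) were used, with no role or order given. Neither annotation release nor strand setting was given in those sources. Groups and replicates follow the sample titles.

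The members and the gene lists were chosen with earlier results of these data known. Counts of all rows were fitted with edgeR 4.0.16 in R 4.3.3 (filterByExpr, 24431 rows kept; TMM; glmQLFit and glmQLFTest; Benjamini-Hochberg over all kept rows). The SE is the log2 ratio divided by the root of F. Simulated counts with known changes were used to test the script. CPM are counts scaled to a common library size with TMM. Overlaps were taken from the exons of all isoforms in GENCODE release 29, on which 63.4% of rows were placed by symbol. Alternatives were RLE, upper-quartile and well-covered-row scaling, other count filters, DESeq2 1.42.0, limma-voom 3.58.1, a replicate block, a pseudocount of 5 and each library left out. Genes outside the members were named as EZH2 and the 2 with most counts in each pathway list and in the stromal and endothelial lists. TYMSOS, KLK3, CHGA, CD68, INTS5 and MCM7, PRIM1 and the rows facing list genes were named after their values were seen. With a library left out, the lone one is taken to vary like the other group. Figures were drawn with matplotlib 3.10.9.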

Additional observations from a re-analysis of the deposited data

How the results depend on the processing

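Of 119 fold changes of the 10 members under the alternatives, 116 kept the negative sign. The exceptions were CCNE2, at 0.27 under scaling on rows with at least 200 counts and 0.12 without siCTRL replicate 1, and TICRR at 0.18 under that scaling. TICRR did not pass the filter of 50 counts in 2 libraries. The negative sign held in 8 to 10 members under the alternatives. The siEZH2 libraries lay below the siCTRL libraries in 7 to 10 members under the 3 other scalings and with each library left out. Among these settings a share of all rows was taken only for scaling on well-covered rows, 6.76% beside 7 members. With a library left out, 1 library is set against 2, so lying below is easier to reach. Changes in the pair ratios moved by less than the spread between libraries under a pseudocount of 5. Those of CCNA2 and EXOSC9 (-0.04) and of TMPO and TMPO-AS1 (0.09) changed sign without siEZH2 replicate 1. The count of rows called in the whole table was less stable. It was 0 in edgeR with TMM, 13 with RLE factors, 80 with no low-count filter, 345 with limma-voom and 868 with DESeq2. It ran from 0 to 221 as each library was left out, being 221 without siEZH2 replicate 1 and 58 without siEZH2 replicate 2. With the replicate number as a block it was 1327 of 24431 rows, among them 8 of the 10 members (all but CCNE2 and TICRR). However, the labels do not say that a number pairs libraries, and deviations of same-numbered libraries correlated at 0.0502 across rows. The cause of these differences was not tested. Only with no low-count filter, besides the block, did edgeR call a member at an adjusted p under 0.05, and that was KIF7. With no low-count filter it called 80 of 51055 rows.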
